A study of Drosophila melanogaster with 3 samples.

Results

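The genes described here are 32 axon guidance receptors, ligands and neuronal adhesion molecules of Drosophila melanogaster, out of 13945 protein-coding genes on the 6 main chromosome arms. They were chosen by name, as a functional group. No measured value entered the rule, but earlier results of these data were known when it was made. The symbol of 31 of them is a gene name in the Ensembl annotation, and conn was matched to Con (FBgn0005775), the gene of connectin, through its RefSeq synonym. The data are chromatin immunoprecipitation and sequencing (ChIP-seq) peaks of the Bar-class homeodomain protein B-H1 in whole embryos. Each of the 3 biological replicates came from the strain labelled B-H1-GFP, which expresses a B-H1-eGFP fusion and was collected at 8 to 24 hours by its source label, and the precipitation used an antibody against GFP. The age field of the labels holds another number of hours, which conflicts with that range and was set aside. All 3 replicates form 1 group, so there is no untreated or mutant group to compare with, and the control experiment that the labels name was not analysed here. The labels do not give the promoter that drives the fusion or the tissues it is made in. In whole embryos, strong occupancy in few cells and weak occupancy in many cells cannot be told apart.

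Axons find their targets by reading attractive and repulsive cues with receptors on the growth cone, and then hold to other axons and muscles through adhesion molecules. Slit, made by cells of the embryonic midline, repels axons through Robo receptors, Netrins attract through Frazzled and repel with Unc-5, and Semaphorins act through Plexins. Immunoglobulin (Ig) and leucine-rich repeat (LRR) proteins, Dscams, teneurins and receptor tyrosine phosphatases act in bundling, targeting and synapse formation. Many of these genes are long, with regulatory sequence spread over their introns.

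A region with a peak in all 3 replicates lay in or within 5 kb of 9 of the 32 genes, 1 region each. Of these regions, 6 are shown here because they are sites at which all replicates had a peak. Each is 200 bp of the RefSeq genome (Release 6, the coordinates of dm6), plus strand, 5′ to 3′, centred on the summit. They are chr4:1027175-1027374 upstream of PlexA, chr3L:22288403-22288602 beyond the 3′ end of Ten-m, chr2L:8575093-8575292 in an intron of Sema1a, chr2L:18325183-18325382 in an intron of Fas3, chr2L:4282667-4282866 upstream of tutl, and chrX:12202346-12202545 in an intron of Ten-a. Capitals mark a match on either strand to 1 of 6 words: TAATTG and TAAACG, words of the Bar homeodomain class; TAATTA, the general homeodomain core; TATCGA, part of the element of the promoter factor DREF; GAGAGA, of GAGA factor; and CACGTG, an E box. TAATTG and TAATTA share their first 5 letters, and TAATTA and CACGTG read the same on both strands.
PlexA: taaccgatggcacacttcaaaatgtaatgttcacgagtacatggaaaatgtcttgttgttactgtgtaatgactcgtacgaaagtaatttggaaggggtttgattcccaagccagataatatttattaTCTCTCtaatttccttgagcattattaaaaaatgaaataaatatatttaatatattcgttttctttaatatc
Ten-m: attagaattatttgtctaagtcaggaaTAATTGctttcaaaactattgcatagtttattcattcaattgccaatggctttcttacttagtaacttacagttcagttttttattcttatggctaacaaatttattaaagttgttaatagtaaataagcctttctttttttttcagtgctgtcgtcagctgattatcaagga
Sema1a: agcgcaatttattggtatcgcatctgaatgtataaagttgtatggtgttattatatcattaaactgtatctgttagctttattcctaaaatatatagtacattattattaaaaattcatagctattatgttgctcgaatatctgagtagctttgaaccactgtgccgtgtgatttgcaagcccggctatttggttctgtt
Fas3: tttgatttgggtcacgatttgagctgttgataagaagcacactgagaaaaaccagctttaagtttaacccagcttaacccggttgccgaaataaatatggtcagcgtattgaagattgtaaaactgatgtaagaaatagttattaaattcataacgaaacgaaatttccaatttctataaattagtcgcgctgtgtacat
tutl: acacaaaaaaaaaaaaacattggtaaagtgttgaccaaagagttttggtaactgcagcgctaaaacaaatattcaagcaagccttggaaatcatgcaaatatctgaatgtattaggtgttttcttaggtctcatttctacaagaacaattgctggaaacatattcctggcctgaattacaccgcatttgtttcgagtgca
Ten-a: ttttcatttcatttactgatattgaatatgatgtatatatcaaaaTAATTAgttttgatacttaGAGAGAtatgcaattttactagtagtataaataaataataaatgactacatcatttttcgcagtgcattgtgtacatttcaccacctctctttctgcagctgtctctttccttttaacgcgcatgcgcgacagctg

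In these letters, PlexA held GAGAGA 28 bp after the summit, read on the other strand as capitals TCTCTC. Ten-m held TAATTG, and Ten-a held TAATTA and GAGAGA, all on the side before the summit. The windows of Sema1a, Fas3 and tutl held none of the 6 words. Of the 3 windows that are not shown, that of sli held GAGAGA, that of unc-5 TAAACG and that of fra TAATTG. Over all 9 windows, GAGAGA was in 3, against 10.1% of the 1375 regions found in all replicates genome-wide, and TAATTG in 2, against 19.9%. TAATTA was in 1, against 19.2%, and TAAACG in 1, against 8.07%. TATCGA and CACGTG were in 0, against 10.3% and 2.11%. With 9 windows these counts are a description, and a match is not a binding site. The windows were AT-rich, with a median of 32.5% G or C and a range from 28% to 35.5%, beside a median of 34% for all 1375 regions.

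The thresholded peak lists held 1971, 3609 and 2199 peaks on the arms in replicates 1, 2 and 3. Replicate 2 stood apart by the length of its list: of 4085 merged regions, 1530 had a peak in replicate 2 alone. Every peak in them had a −log10 of the global irreproducible discovery rate (IDR), the authors' score of how well a peak's rank is reproduced, of at least 2. Signal is the authors' value for each peak, on a scale that is not stated. It is given here mainly as a percentile within the replicate's own list, so 100 is the strongest peak. The read depth of the libraries is unknown, and no counting interval can be given.

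PlexA, unc-5 and tutl were the 3 genes with a summit of a region in all 3 replicates within 1 kb of a transcript start site (TSS), 9.38% of the 32. The share of all protein-coding genes was 7.90%, and that of genes of similar span was 13.8%, so the 3 genes are near the background. Genes of similar span are, for each of the 32, the 200 protein-coding genes nearest to it in length from first to last base. That comparison matters because the 32 genes are long: their spans ran from 3807 to 291517 bp with a median of 42193 bp, against a median of 2166 bp for all protein-coding genes. In the gene span or 5 kb around it, 9 genes had such a region, 28.1%, against 20.7% of all genes and 35.7% of genes of similar span. A region in at least 1 replicate was near 21 genes, 65.6%, against 43.9% and 63.2%. Genes of similar span lay above the 32 genes under the first of these span rules and slightly below them under the second. Without replicate 1, 13 genes had a region shared by the others in their span, and the number of shared regions rose from 9 to 17. That rule asks for fewer lists, which is looser for every gene, and no share of all genes is given for it.

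**Figure D1:**
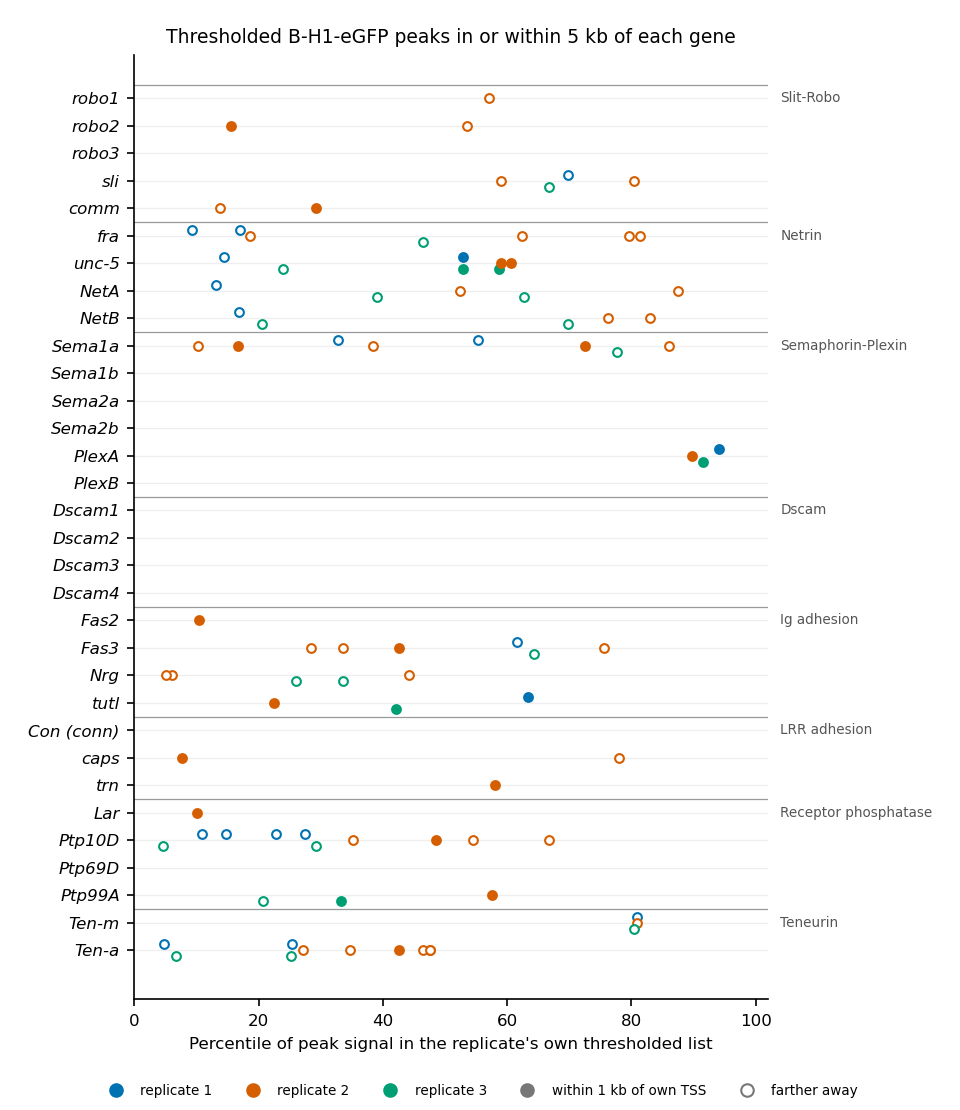
Percentile of signal (horizontal axis, within the replicate's own thresholded list) of every thresholded peak in or within 5 kb of each of the 32 genes (rows, by family); colours are replicates, filled points lie within 1 kb of a TSS of the gene. The 3 points of PlexA lie between 89.8 and 94.2, many genes have points of replicate 2 only, and 11 rows are empty.

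Among the ligands, sli had a region in all 3 replicates and NetA and NetB did not, although both Netrin genes had peaks in every replicate. The sli region (FBgn0264089, chr2R:15886989-15887310) lay in an intron, 3755 bp downstream of a TSS. Its signal was 87.9, 117 and 80.9 in replicates 1, 2 and 3, at percentiles of 69.7, 80.4 and 66.7. All replicates thus placed it in the upper part of their lists, at a mean of 72.3 ± 7.2 (SD, n = 3). A second sli region, in replicate 2 only at a percentile of 59.1, lay 294 bp beyond the 3′ end of the gene and within 1 kb of a TSS of Rif1, a telomere and replication timing factor.

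NetA (FBgn0015773) and NetB (FBgn0015774) lie next to each other on X and each had 3 regions, of which 2 were shared by replicates 2 and 3 and 1 was in replicate 1 alone. The stronger shared region of NetA, in an intron 41328 bp from its nearest TSS, had percentiles of 87.5 and 62.7 in replicates 2 and 3. The stronger one of NetB, in its 3′ UTR, had percentiles of 76.2 and 69.8. Replicate 1 had a ranked peak at both, with a −log10 global IDR of 0.877 and 0.894, under the threshold of 2. The peaks of replicate 1 alone were weak in its own list, at percentiles of 13.1 in NetA and 16.8 in NetB. None of the 6 Netrin regions was at a TSS of either gene by the 1 kb rule.

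Sema1a (FBgn0011259), a transmembrane Semaphorin, had 6 regions over a span of 129895 bp, and 1 was in all 3 replicates. That intron region (chr2L:8574978-8575327) lay 31863 bp downstream of a TSS, with signal of 68.1, 137 and 99.98 and percentiles of 55.3, 86.1 and 77.6. It was high in replicates 2 and 3 and near the middle of the list in replicate 1. Its −log10 global IDR was 4.05, 5 and 5. Of the other 5 regions, 4 were in replicate 2 only and 1 was in replicate 1 only. The secreted Semaphorins Sema2a and Sema2b and the transmembrane Sema1b had no thresholded peak in or within 5 kb of the gene in any replicate.

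Among the receptors, PlexA (FBgn0025741), a Semaphorin receptor, had the strongest region of the 32 genes. Its region (chr4:1027218-1027382) lay 174 bp upstream of the TSS and was the only one in its window. Its signal was 201, 159 and 165, at percentiles of 94.2, 89.8 and 91.5, a mean of 91.8 ± 2.2 (SD, n = 3). The 3 replicates lay close together. A TSS of an antisense RNA gene, asRNA:CR44031, lies within 1 kb of the same summit, and peaks do not tell which gene a site belongs to. PlexB, the other Plexin and also on chromosome 4, had no thresholded peak. Its strongest ranked peak within 1 kb of the TSS had a −log10 global IDR of 1.35, 1.09 and 0.316 in replicates 1, 2 and 3, under the threshold in each.

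Both Netrin receptors had a region in all 3 replicates, at the TSS in unc-5 and in an intron in fra. The unc-5 region (FBgn0034013, chr2R:15349857-15350179) lay at −126 bp from an internal TSS, with signal of 66.2, 76.8 and 65.1. The percentiles of 52.9, 58.9 and 52.9 put it near the middle of every list, with little spread between replicates. A further unc-5 region 835 bp upstream of a TSS, shared by replicates 2 and 3 at percentiles of 60.6 and 58.7, was slightly stronger there and missed the threshold in replicate 1 with a −log10 global IDR of 1.53. The fra region (FBgn0011592, chr2R:12543626-12543984), 14773 bp into a gene of 35132 bp, had signal of 39.3, 114 and 60.2. Its percentiles of 9.26, 79.6 and 46.5 differed widely: the site was strong in replicate 2 and near the bottom of the list in replicate 1. The fra intron held 3 further regions, 1 shared by replicates 1 and 2 and 2 in replicate 2 only.

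The Robo receptors had no region in more than 1 replicate. robo1 had 1 region and robo2 had 2, all in replicate 2, and robo3 had none. That of robo1 lay 3600 bp beyond the 3′ end of the gene, within 1 kb of a TSS of Ppa. At robo2 the summits lay 33 bp downstream and 2528 bp upstream of the TSS, with percentiles of 15.6 and 53.6. comm, whose product keeps Robo off the growth cone so that axons can cross the midline, also had regions in replicate 2 only, at +5 and −1107 bp from the TSS.

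The receptor tyrosine phosphatases had 10 regions and none in all 3 replicates. Ptp10D (FBgn0004370) held 7 of them, more than any other of the 32 genes. Of these, 3 were in 2 replicates, at 1058 and 7191 bp from the TSS in replicates 1 and 2 and at 35307 bp in replicates 1 and 3. Their mean percentiles were 47.1, 25.0 and 13.7. Ptp99A had a region at −214 bp from a TSS in replicates 2 and 3, with percentiles of 57.6 and 33.2 and a −log10 global IDR of 0.9699 in replicate 1. Lar had 1 region, in replicate 2 only, and Ptp69D had none.

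**Figure D2:**
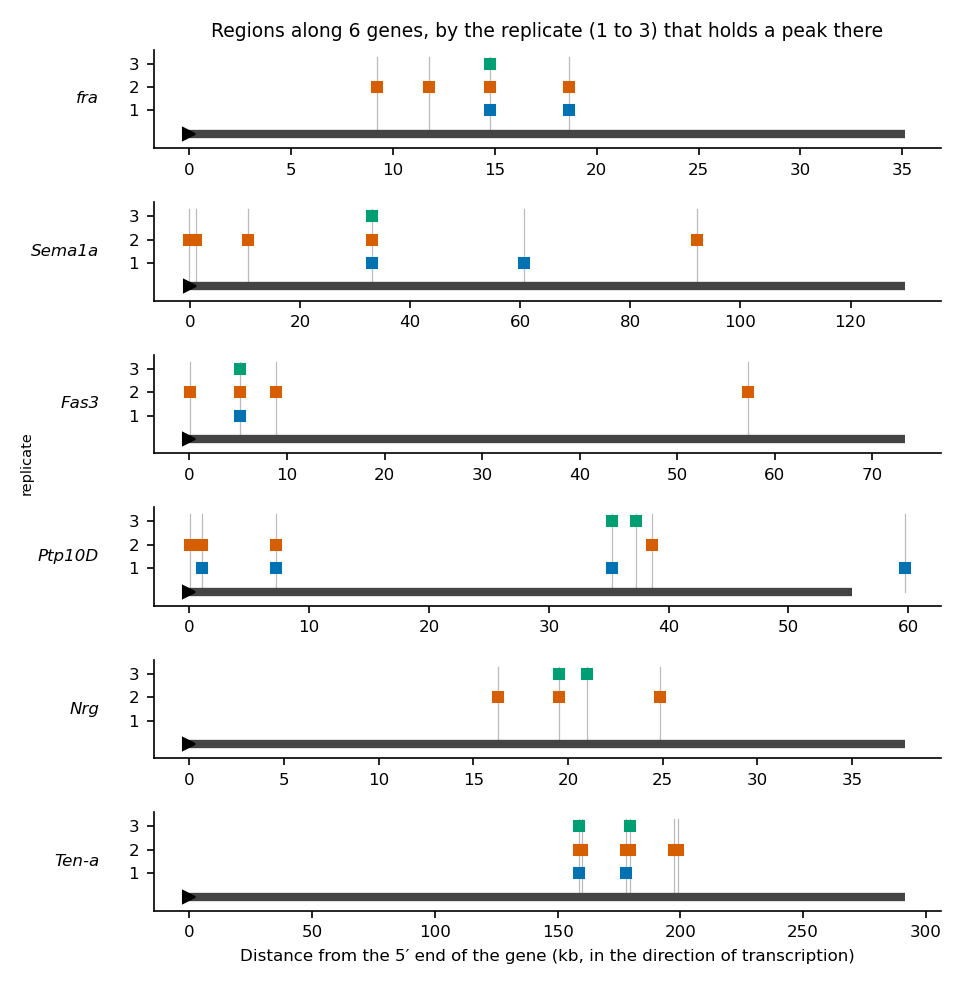
Positions of region summits along 6 of the genes with several regions or a shared intron region, in kb from the 5′ end of each gene (bar, arrowhead at the start); squares show which of replicates 1, 2 and 3 holds a peak there. Single regions of fra, Sema1a, Fas3 and Ten-a have all 3 squares, and no region of Ptp10D or Nrg does.

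Among the adhesion genes, Fas3, tutl, Ten-a and Ten-m had a region in all 3 replicates. The Fas3 region (FBgn0000636, chr2L:18325115-18325414), in an intron 5181 bp downstream of the TSS of this homophilic Ig adhesion gene, had signal of 75.5, 103 and 77.7. Its percentiles of 61.5, 75.6 and 64.3 lay in the upper part of each list. The region of tutl (FBgn0010473, chr2L:4282602-4282920), an Ig protein known for axon and dendrite patterning, lay 381 bp upstream of a TSS with signal of 77.6, 51.3 and 56.6. Its percentiles of 63.4, 22.5 and 42.2 were highest in replicate 1 and lowest in replicate 2, the reverse of fra.

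The teneurins are transmembrane proteins that match synaptic partners. Ten-a (FBgn0267001), the longest of the 32 genes, had 6 regions, all in introns. The one in all 3 replicates (chrX:12202213-12202595) lay at −1352 bp from an internal TSS and just outside the 1 kb window. It was weak, with signal of 47.8, 66.1 and 36.6 and percentiles of 25.3, 47.6 and 6.66. The Ten-m region (FBgn0004449, chr3L:22288353-22288677) was strong and even, with signal of 116, 118 and 107 and percentiles of 80.9, 80.8 and 80.4. It lay 4541 bp beyond the 3′ end of Ten-m and within 1 kb of TSSs of Hem and IleRS, a regulator of actin and a transfer RNA synthetase, so it counts for Ten-m only through the 5 kb rule.

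Nrg, the fly L1-type adhesion molecule, had 4 intron regions, 1 shared by replicates 2 and 3 at percentiles of 5.08 and 26.1. Fas2, the NCAM-type adhesion molecule of axon bundles, and the LRR genes caps and trn had regions in replicate 2 only. Con, the third LRR gene, had none. Nor did the 4 Dscam genes, whose spans run from 30733 to 63976 bp. The Dscam family was the only one of the 8 families listed without a thresholded peak.

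The 9 shared regions were as strong as shared regions elsewhere, but a smaller share of the regions near these genes was found in all 3 replicates. The median of their mean percentiles was 67.1, beside 67.4 for all 1375 regions in all 3 replicates. Of 57 regions in or within 5 kb of the 32 genes, 9 were in all 3 replicates, 15.8%, against 33.7% of all 4085 regions. A further 14 were in 2 replicates, 24.6% against 17.4%, and 34 in 1, 59.6% against 49.0%. Of these 34, 27 were in replicate 2 only, 79.4%, near the 76.5% of all regions found in 1 replicate. By feature, 38 summits lay in introns, 7 in 5′ UTRs, 6 upstream, 5 downstream and 1 in a 3′ UTR. A TSS of another gene, not among the 32, was within 1 kb of 6 of the 57.

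The density of summits in these genes was lower than in the pooled genes of similar span in each replicate's list. For this value the 1997 distinct genes of similar span were pooled over 68893148 bp, each counted once. They were thus not weighted by the gene they match, so the ratio is not corrected for span gene by gene. Over 2207762 bp of spans and flanks there were 0.861, 2.17 and 0.996 summits per 100 kb in replicates 1, 2 and 3, against 1.65, 3.05 and 1.83. The ratio was 0.522, 0.714 and 0.544, a mean of 0.593 ± 0.105 (SD, n = 3). For regions in all 3 replicates the densities were 0.408 and 1.16, a ratio of 0.351. Genes of similar span include other genes within them, and when summits within 1 kb of another gene's TSS were left out of both sets the ratio was 0.697, 0.920 and 0.703, a mean of 0.774 ± 0.127 (SD, n = 3), over the same lengths. The ratio stayed under 1 in each replicate and was nearest to 1 in replicate 2. These ratios were not tested.

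The share of genes with a peak, taken per replicate, did not separate the 32 genes from genes of similar span. Within 1 kb of a TSS, 3 genes had a thresholded peak in replicate 1 (9.38%, against 10.7% of all genes and 16.9% of genes of similar span), 14 in replicate 2 (43.8%, against 16.5% and 31.4%) and 4 in replicate 3 (12.5%, against 11.8% and 19.2%). Replicate 2 was above the genes of similar span and replicates 1 and 3 were below. The mean difference was −0.60 ± 11.2 percentage points (SD, n = 3; exact sign-flip permutation test, two-sided, p = 1, with 0.25 the smallest p that 3 replicates allow). In the span or 5 kb around it the counts were 12, 21 and 14 genes, or 37.5%, 65.6% and 43.8%. All genes gave 27.0%, 38.9% and 29.2%, and genes of similar span gave 43.7%, 58.2% and 46.4%. The mean difference was −0.48 ± 7.05 points (SD, n = 3; exact sign-flip permutation test, two-sided, p = 1). Without replicate 2 the differences were −7.08 and −4.42 points, without replicate 1 they were 2.84 and 2.38 points, and without replicate 3 they were 2.44 and 0.586 points. The sign of these differences thus turned when replicate 1 or replicate 3 was left out.

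**Figure D3:**
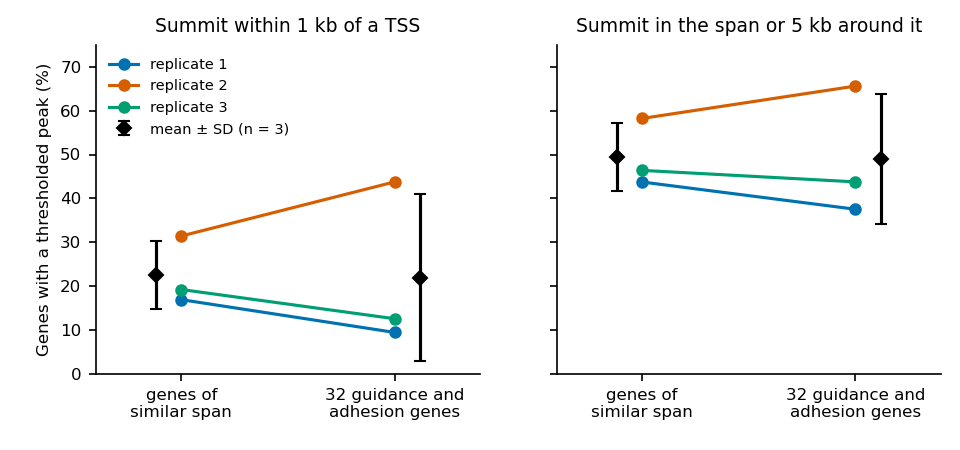
Percentage of genes with a thresholded peak in each replicate (vertical axis) among genes of similar span and the 32 guidance and adhesion genes, within 1 kb of a TSS (left) and in the span or 5 kb around it (right); lines join the same replicate and diamonds give mean ± SD (n = 3). In both panels the 32 genes lie above genes of similar span in replicate 2 and below them in replicates 1 and 3.

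The peaks that only replicate 2 had near TSSs lay at the start sites themselves. Within 1 kb of their own TSS the 32 genes had 16 regions: 3 in all replicates, 2 in 2 replicates, and 11 in replicate 2 only. These 11 were at 10 genes (robo2, comm, Sema1a, Fas2, Fas3, caps, trn, Lar, Ptp10D and Ten-a), 31.3% of the 32, against 7.47% of all protein-coding genes and 17.9% of genes of similar span. Their summits lay between −103 and +206 bp of the TSS, 8 of 11 at or downstream of it and 7 in a 5′ UTR. At Fas3, caps and Ptp10D the summit lay at +86 bp. Among all regions of replicate 2 only, 4 lay at +86 bp, fewer than the 7 at +33 bp and the 6 at −14 bp. The shared regions of the 32 genes within 1 kb, in contrast, all lay upstream, from −835 to −126 bp. Among all regions of the genome the same difference in position was seen: 17.1% of the 1530 regions of replicate 2 only lay 0 to 250 bp downstream of a protein-coding TSS, against 4.44% of regions in all 3 replicates.

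The 11 peaks ranged from a percentile of 7.72 at caps to 72.5 at Sema1a in the list of replicate 2, with a median of 29.2. They were mostly weak in that list, with Sema1a and trn (58.0) the highest. That Sema1a summit, at −103 bp, also lay within 1 kb of TSSs of 2 transfer RNA genes, tRNA:Asp-GTC-1-4 and tRNA:Asp-GTC-1-5. Peaks do not tell which gene a site belongs to. At 6 of the 11, neither replicate 1 nor replicate 3 had even a ranked peak that overlapped, 54.5% against 26.5% of all 864 regions of replicate 2 only within 1 kb of a protein-coding TSS. For the 262 of replicate 2 only that lay 0 to 250 bp downstream of such a TSS, as 8 of the 11 did, it was 36.6%. At the 16 regions of replicate 2 only that lay farther from the TSS of their gene, both other replicates lacked a ranked peak at 2, or 12.5%, near the 17.1% of all 666 such regions over 1 kb from a protein-coding TSS. This split by replicate and distance was chosen after seeing the data. Whether the library of replicate 2 or its list length set these peaks was not tested.

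**Figure D4:**
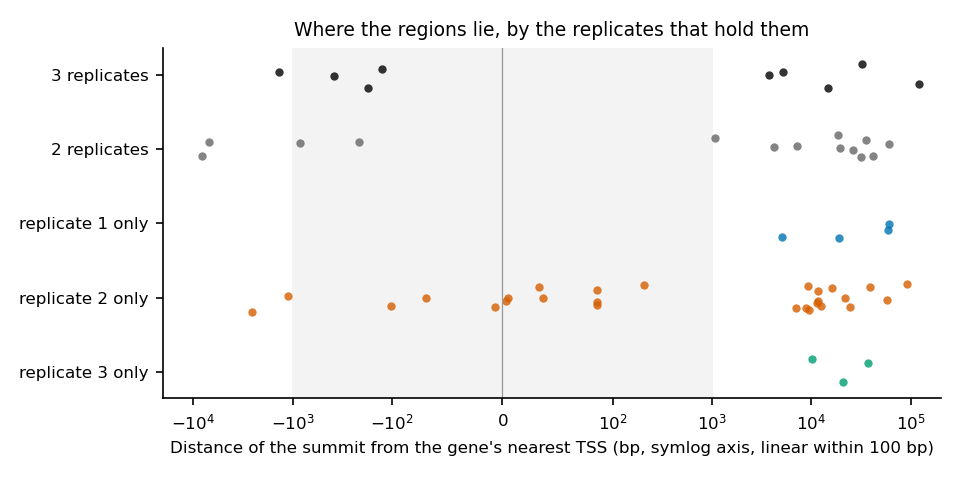
Signed distance of each of the 57 summits from the nearest TSS of its gene (horizontal axis, bp, symmetric log scale, linear within 100 bp; negative is upstream), by the replicates that hold the region; the shaded band is 1 kb on each side and points are spread vertically for visibility. The summits of replicate 2 only include the 11 between −103 and +206 bp, and no summit of replicate 1 only or replicate 3 only lies in the band.

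Letters of core promoters were searched because of these positions, also after seeing the data. TCAGT, a word of the initiator, lay within 10 bp of a TSS on the sense strand in 14 of the 32 genes, 43.8%, against 31.5% of genes of similar span and 16.6% of all genes. GAGAGA lay within 250 bp of a TSS, on either strand, in 18, or 56.3%, against 42.4% and 22.1%. Among the 10 genes with a TSS peak in replicate 2 only, each word was found in 5. Among the other 22, TCAGT was found in 9 and GAGAGA in 13. The words were thus common in the 32 genes with and without such a peak. Of the 1041 protein-coding genes with a region in replicate 2 only within 1 kb of a TSS, 27.7% held TCAGT and 37.7% GAGAGA. The 1102 genes with a region in all 3 replicates there gave 20.5% and 32.7%. Genome-wide, both words were thus more common at genes with such a peak than in all genes, without correction for span. A link between the words and these peaks was not tested.

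Ranked lists, before the threshold, give values for genes that have no peak in the thresholded lists. Within 1 kb of a TSS, 23, 30 and 22 of the 32 genes had a ranked peak in replicates 1, 2 and 3, and 19 had one in every replicate. Of all protein-coding genes, 71.1%, 81.0% and 71.2% had one. The share of all genes with one in every replicate is not given here, so the count of 19 is a description only. At most genes the reproducibility was low. Besides PlexA, unc-5 and tutl, the values of replicate 1 did not pass 1.35, and in replicate 3 only Ptp99A passed the threshold, at 2.85. Of the 11 genes with no thresholded peak anywhere in the window, PlexB in replicate 1, at 1.35, had the highest −log10 global IDR near a TSS, followed by PlexB (1.09) and Sema1b (1.01) in replicate 2.

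**Figure D5:**
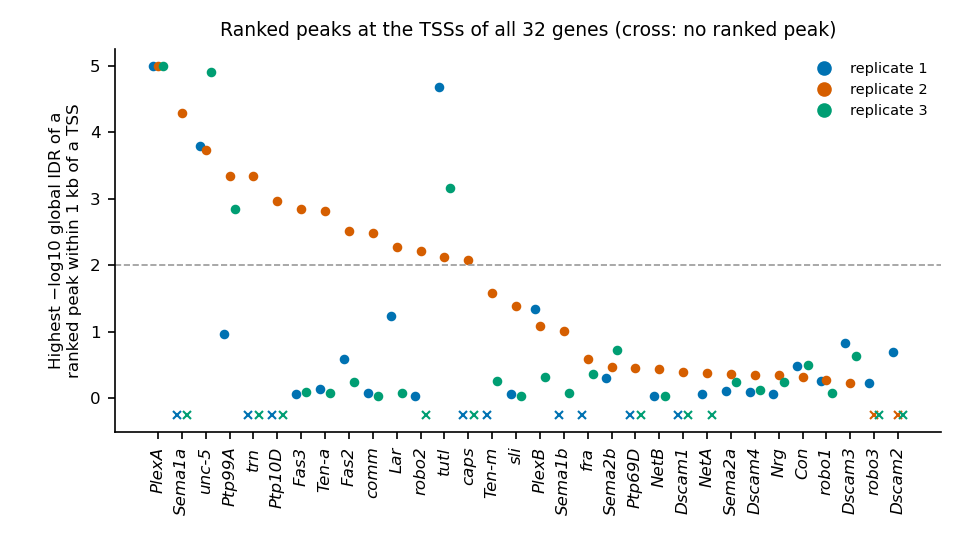
Highest −log10 global IDR of a ranked peak within 1 kb of a TSS (vertical axis) for all 32 genes in replicates 1, 2 and 3 (colours), ordered by replicate 2; the dashed line is the threshold of 2 and a cross marks no ranked peak. PlexA, unc-5 and tutl have 3 points above the line, Ptp99A has 2, and 10 genes have only that of replicate 2.

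The authors' conservative list for the whole series, made from all 3 replicates, placed a summit within 1 kb of a TSS of 5 of the 32 genes, 15.6%, against 14.4% of all genes and 24.4% of genes of similar span. These were PlexA, unc-5, tutl, Ptp99A and Fas2. In the span or 5 kb around it, it named 18 genes, 56.3%, against 35.5% and 54.2%. Of the 57 regions, 34 overlapped a conservative peak, 59.6% against 64.8% of all 4085 regions. Of the 34 found in 1 replicate, 13 did, 38.2% against 33.6%. Of the 11 TSS regions of replicate 2 only, 1 did, that of Fas2, which is 9.09% against 27.5% of all 864 such regions near a protein-coding TSS. None of the 11 genes without a region had a conservative peak.

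The limits of 1 kb and 5 kb left some regions just inside and just outside. The unc-5 region at −835 bp counted, while Ptp10D at +1058 bp, comm at −1107 bp and Ten-a at −1352 bp did not. Ten-m at 4541 bp and Ptp10D at 4406 bp beyond the span counted. comm at 5517 bp, a Sema1a region in all 3 replicates at 7232 bp upstream, and a robo2 region in all 3 replicates at 8032 bp upstream did not. The Sema1a one was strong, at a mean percentile of 90.4, and lay within 1 kb of a TSS of CG17834. The robo2 one, at 46.3, lay within 1 kb of a TSS of CG43401. Regions in all 3 replicates at 8169 bp from Ptp69D, 9335 bp from tutl and 9464 bp from Fas3 were also outside. Each of them lay within 1 kb of a TSS of another gene.

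Genes that act with the 32 were read by the same rules from 3 further lists. Of 22 intracellular effectors of guidance signalling, 5 had a region in all 3 replicates within 1 kb of a TSS, 22.7%, against 7.90% of all genes and 11.3% of genes similar in span to that list. They included Mtl, a Rac-type GTPase, at a mean percentile of 99.3 ± 0.2 (SD, n = 3), and Mical, an enzyme that oxidises actin downstream of PlexA, at 83.1 ± 7.6. The others with the highest percentiles were hts, which encodes adducin, at 82.5 ± 13.8, and RhoGAP93B, a GTPase regulator that acts with Robo, at 72.6 ± 11.6 (SD, n = 3). Of 17 other guidance receptors and ligands, 1 had such a region, 5.88% against 13.0% of genes similar in span, the glypican gene dlp at 37.4 ± 12.4. Of 22 other adhesion genes, 1 did, 4.55% against 12.3%, the Ig gene sdk at 62.8 ± 2.8 (SD, n = 3). In the span or 5 kb around it, 9, 7 and 5 genes of these lists had one, 40.9%, 41.2% and 22.7%, against 20.7% of all genes and 27.7%, 33.2% and 33.0% of genes similar in span. These lists were not tested.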

How the data were processed

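Peaks were called per replicate, not on pooled reads, per the description files deposited with the lists. Each list also drew on 1 input common to the 3 replicates, which makes them partly dependent. The assembly was dm6, per the labels. For the aligner and the peak caller, a name or version was not given in the sources used here. The signal of a peak is the authors' value on an unstated scale, and the −log10 of the global IDR is the value the authors deposited in the ranked lists. In the series' own lists, 32 columns of per-sample values were not matched to a replicate and were not used.

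Thresholded peaks of the replicates on the 6 arms were merged where they overlapped by at least 1 bp, and a region took its summit from the peak of highest percentile. Genes and TSSs came from Ensembl release 115 on the same genome release (6), with 13945 protein-coding genes. A gene's share was read beside its 200 nearest genes in span, in Python 3.11.15 with numpy 2.4.6. The only test was an exact sign-flip test over replicates. The counting of shares was tested on simulated data. All 32 genes are named, with up to 4 genes of each further list by percentile. The genes, lists and rules were chosen with earlier results of these data known. Alternatives were other windows, flanks, thresholds, peak lists, overlaps, replicates and comparison genes.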

Additional observations from a re-analysis of the deposited data

Results flagged for a closer look

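Of the 43 peaks of the authors' conservative list in or within 5 kb of the 32 genes, 7 overlapped no thresholded peak of any replicate. They lay at robo2, which had 2 of them, and at fra, Sema1a, unc-5, Lar and Ten-a. These peaks enter no count of regions in the report, and they are listed because the conservative list holds them while the 3 replicate lists do not. The share of all conservative peaks without such an overlap is not given here, so the 7 cannot be read as particular to these genes. Their source was not tested.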

How the results depend on the processing

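Looser rules can raise such counts for every gene, so the rises are not particular to these genes. The 3 genes bound within 1 kb of a TSS became 14 with a peak in at least 1 replicate and 5 in the conservative list. Their shares differed from those of genes of similar span by 10.1 and −8.78 points. The 9 genes under the span rule became 14 with at least 2 replicates, 21 with at least 1 and 18 in the conservative list. There the differences from genes of similar span were −1.70, 2.42 and 2.02 points. The 9 regions became 14 with a 10 kb flank, 23 with at least 2 replicates, 57 with at least 1, 43 in the conservative list, and 11 to 17 without 1 replicate. The TSS difference of −0.60 points changed sign with a 500 bp window (4.41), the 5′-most TSS only (3.69), at least 1 replicate (10.1), 20 bins of span (0.28) and genes similar in number of TSSs (3.40), and ran from −7.08 to 2.84 without 1 replicate. The span difference of −0.48 points changed sign with flanks of 0 bp (2.87) and 10 kb (0.906), at least 1 replicate (2.42), the conservative list (2.02), 20 bins (0.39) and similar number of TSSs (5.28), and ran from −4.42 to 2.38 without 1 replicate. The density ratio of 0.593 became 0.758 with at least 1 replicate, 0.762 in the conservative list and 0.774 without summits near another gene's TSS. For regions in 3 of 3 replicates, an alternative chosen after seeing the data, it was 0.351. With such regions merged by 50% overlap it was 0.353, so the merging rule itself hardly moved it. Each of these ratios was under 1. The median percentile of 67.1 became 45.7 with at least 2 replicates, 39.8 with at least 1, 54.9 without regions near another gene's TSS, and 47.1 to 59.6 without 1 replicate. No median of all regions is given under these rules, so the changes cannot be read as particular to these genes. In windows of 100 and 400 bp, TAATTG was in 0 and 5 of the 9 regions (12.6% and 30.5% of all shared regions), TAAACG in 0 and 2 (4.36% and 16.7%), TAATTA in 0 and 4 (11.7% and 27.3%), TATCGA in 0 and 2 (4.51% and 21.02%), and GAGAGA in 2 and 3 (2.11% and 25.5%). Genes with a ranked peak in every replicate fell from 19 to 10 within 250 bp of a TSS, also chosen after seeing the data and without a share of all genes beside it. In the other alternatives, 10 for the TSS difference and 8 for the span difference, the direction stayed the same. For the density ratio, the other 10 alternatives were also under 1 and lay within 1 SD (0.105) of 0.593. The causes were not tested. With 1 group of samples there was no second group to pair by replicate number; the differences above were taken within each replicate. Depth is unknown, so weak peaks below a threshold cannot be told from absent ones.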
